A study of Mus musculus with 4 samples.

Results

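Genes that mark or drive the T lineage and act at the end of the Wnt and Notch pathways were followed across 4 arrays of mouse haematopoietic stem cells (HSCs). The 8 genes were chosen by their log2 signals on these same arrays, by genotype and array number, and are Lef1, Tcf7, Hes1, Gata3, Cd2, Cd3d, Cd3g and Bcl11b. A gene was found by its symbol among probe sets with 1 symbol, and where several matched, the brightest on average was taken. By this rule 7 of the 8 were measured, out of 19938 genes in all, each by 1 probe set. Tcf7 was not analysed here.

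The cells came from the bone marrow of C57BL/6 (B6) mice aged 8 weeks and were sorted as Lin-c-Kit+Sca-1+ (LSK), a gate that takes in multipotent progenitors as well as stem cells. One group was wild type (WT) and the other was labelled Hif1a-/-, that is, lacking the gene for HIF-1 alpha, a transcription factor that is stabilised when oxygen is low. Each genotype had 2 arrays, called biological replicates and numbered 1 and 2. The sources used here do not say how or in which cells Hif1a was deleted, or how many animals gave each sample, so the spread between arrays may be partly technical. The study set the genotypes against each other to ask how their HSC transcripts differ.

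LEF1 and TCF7 are sister DNA-binding factors through which Wnt signalling, relayed by beta-catenin, reaches its target genes. HES1 is a repressor switched on when a cleaved Notch receptor joins the DNA-binding factor RBPJ. In the thymus, Notch and then TCF7, GATA3 and BCL11B commit progenitors to the T lineage, and the CD3 chains and CD2 appear on the surface of the cells that follow. Stem cells and early progenitors can carry several of these transcripts at low levels, and LEF1 also serves early B-cell progenitors.

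Values are log2 signals, so a difference of 1 is a doubling. No gene passed the threshold of an adjusted p under 0.05 between the genotypes with limma, a linear model fitted to all 19938 genes (0 called, 0%). An unadjusted p under 0.05 was reached by 145 genes (0.727%), of which those higher in Hif1a-/- were 0.547% of all genes. The 145 became 595 without WT array 1, 622 without array 1 labelled Hif1a-/-, 79 without WT array 2 and 57 without array 2 labelled Hif1a-/-. With 2 arrays against 2, an exact permutation test of any single value cannot go below p = 0.333 (two-sided). Hif1a itself read 10.37 and 10.99 in WT against 10.58 and 10.64 in Hif1a-/-, a difference of −0.08 (SE 0.24) with overlap. The deleted part and the cells in which it was deleted are not stated, and the signal may come in part from sequence outside that part. It therefore does not check the labels, and every direction follows them.

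The arrays numbered 2 stood apart from those numbered 1 in both genotypes. All 12 neutrophil markers had both arrays numbered 2 above both numbered 1, as did 14 of 16 natural killer (NK) and innate lymphoid cell (ILC) markers, and 12 of 13 measured LSK markers had them below. Over all genes these shares were 20.4% above and 27.2% below. Mean log2 signals of the LSK markers were 10.60 and 9.62 in WT (numbers 1 and 2) against 10.43 and 9.14 in Hif1a-/-. Ly6a, which encodes Sca-1, was not among the LSK markers matched. In sorted bulk cells, a difference in the number of cells of a type and one in RNA per cell cannot be told apart.

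Among the members, Lef1 and Hes1 were higher in Hif1a-/-, Gata3 was lower, Bcl11b was nearly level, and the 3 surface chains were higher in the mean by small amounts. For 4 measured members (Lef1, Hes1, Cd2, Cd3d) each value labelled Hif1a-/- exceeded each WT value, and for 1 (Gata3) each was lower. Over all genes this held for 16.1% above and 8.33% below. Since the members were chosen with these genotype differences known, the values are a description and no test of a member is given.

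**Figure D1:**
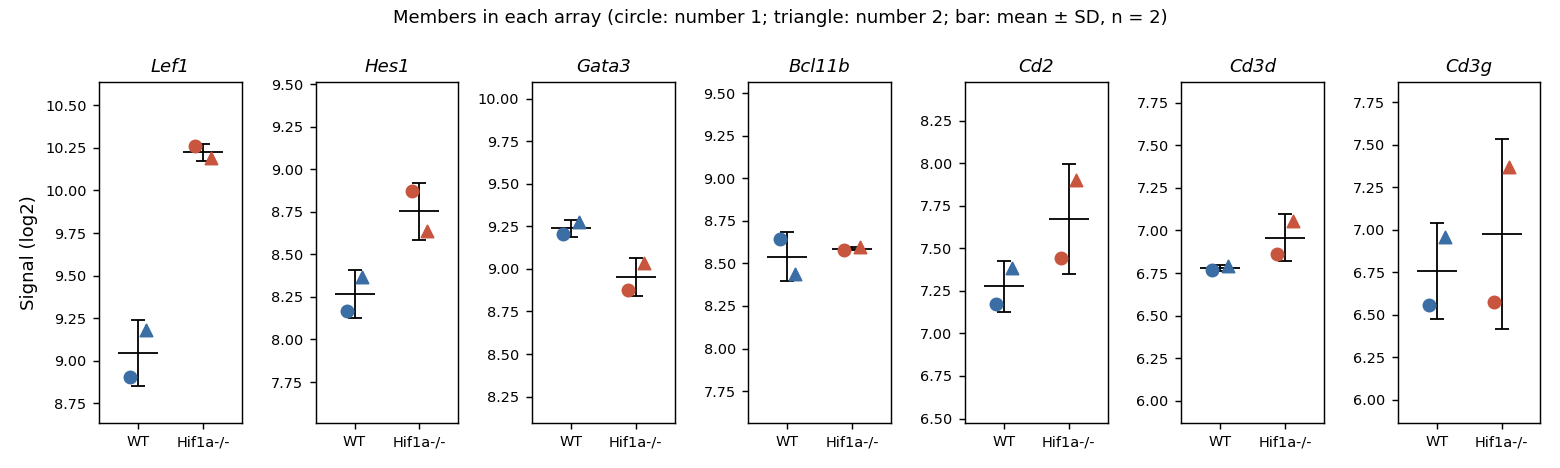
Log2 signal of each measured member in the 4 arrays (circles number 1, triangles number 2), by genotype, with the mean and SD of 2 arrays. The vertical scales differ in position but span the same 2 log2 units. Lef1 shows the widest gap between the genotypes, from at most 9.18 in WT to at least 10.19 in Hif1a-/-, while the Cd3g values of the genotypes overlap.

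Lef1 differed most. Its log2 signal was 8.91 and 9.18 in WT (numbers 1 and 2) against 10.26 and 10.19 in Hif1a-/-. Every Hif1a-/- value thus lay above every WT value, by more than either pair of replicates was apart. The means were 9.04 ± 0.20 (SD, n = 2) and 10.23 ± 0.05 (SD, n = 2), a difference of 1.18 log2 units (SE 0.15) or 2.27-fold. Within number 1 the difference was 1.35, and within number 2 it was 1.01. It was the 8th highest difference of all 19938 genes.

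Lef1 has 4 transcript starts in the RefSeq promoter table (GRCm38.p6), and 1 probe set measures the gene as a whole, so these values do not say which start was used. The 250 bases before the most upstream start and before the most downstream one, which lies 45997 bases further into the gene, are shown to compare their letters. Capitals mark matches, on either strand, to the HIF core (ACGTG or GCGTG), the LEF/TCF core (CTTTGA or CTTTGT), the RBPJ core (TGGGAA) and the GATA core (AGATAA or TGATAA).
Lef1 upstream start, chr3:131110047-131110296, plus strand: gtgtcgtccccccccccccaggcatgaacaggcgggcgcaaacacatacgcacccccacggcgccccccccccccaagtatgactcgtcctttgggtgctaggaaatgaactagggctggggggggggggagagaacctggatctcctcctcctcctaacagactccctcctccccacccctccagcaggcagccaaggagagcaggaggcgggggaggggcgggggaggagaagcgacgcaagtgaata
Lef1 downstream start, chr3:131156044-131156293, plus strand: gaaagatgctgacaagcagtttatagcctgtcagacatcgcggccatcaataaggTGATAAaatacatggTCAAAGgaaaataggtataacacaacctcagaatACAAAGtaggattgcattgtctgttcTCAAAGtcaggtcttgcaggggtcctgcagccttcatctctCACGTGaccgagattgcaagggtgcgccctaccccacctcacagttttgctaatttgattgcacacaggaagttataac
The upstream window is rich in runs of C and G and held 0 matches to the 4 cores. The downstream window held 3 LEF/TCF core matches, 1 GATA core match and a CACGTG, in which the HIF core reads on each strand and is counted as 2 overlapping matches. Of 32851 windows of this length, 38.6% held a HIF core, 27.6% a LEF/TCF core, 21.6% an RBPJ core and 16.6% a GATA core. Such matches are common and describe letters only.

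The relatives of Lef1 differed less. Tcf7l1, a LEF/TCF factor mostly known as a repressor, read 8.24 and 8.12 in WT against 8.49 and 8.02 in Hif1a-/-. Its mean difference of 0.08 (SE 0.20) turned sign under quantile normalization and under median centring. Tcf7l2, the fourth factor of the family, read 9.98 and 9.17 in WT against 9.97 and 9.50 in Hif1a-/-, a difference of 0.17 (SE 0.35). Both genes were lower in number 2 than in number 1 in each genotype, and their genotypes overlapped.

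Markers of early B cells stood beside Lef1 in the same arrays. The B-cell list had 13 measured genes, of which 12 had a higher mean in Hif1a-/- and 9 did so without overlap (69.2%, against 16.1% of all genes). Averaged over the list, the log2 signal was 9.58 (WT array 1), 9.72 (WT array 2), 10.42 (Hif1a-/- array 1) and 10.18 (Hif1a-/- array 2). Array 1 labelled Hif1a-/- was thus the highest of the 4, as it was for Lef1. For Lef1 the arrays labelled Hif1a-/- differed from number 1 to number 2 by only −0.07, and by 0.0285 under cyclic loess. Summed over the list on the linear scale, the signal was 18132 to 20102 in WT against 25079 to 33301 in Hif1a-/-. Within the numbers the list's median difference was 0.90 (number 1) and 0.62 (number 2). The array values have no true zero, so no marker could be read as absent. The part of B-lineage cells in the Lef1 difference was not tested.

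The genes whose profile over the 4 arrays was most like that of Lef1 were Rag1, Slamf6 and Ifi213. Likeness was measured as the root mean square difference between profiles centred on their own mean, which was 0.08 for Rag1, 0.11 for Slamf6 and 0.14 for Ifi213. Rag1, a recombinase of antigen-receptor genes, read 9.05 and 9.19 in WT against 10.31 and 10.41 in Hif1a-/-. Slamf6, a lymphocyte surface receptor, read 8.48 and 8.96 against 9.91 and 9.66, with the same high number 1 as Lef1. Ifi213, an interferon-inducible gene, read 7.90 and 7.82 against 8.93 and 8.96. Because likeness was searched among 19938 genes over 4 arrays, it describes these arrays only.

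**Figure D2:**
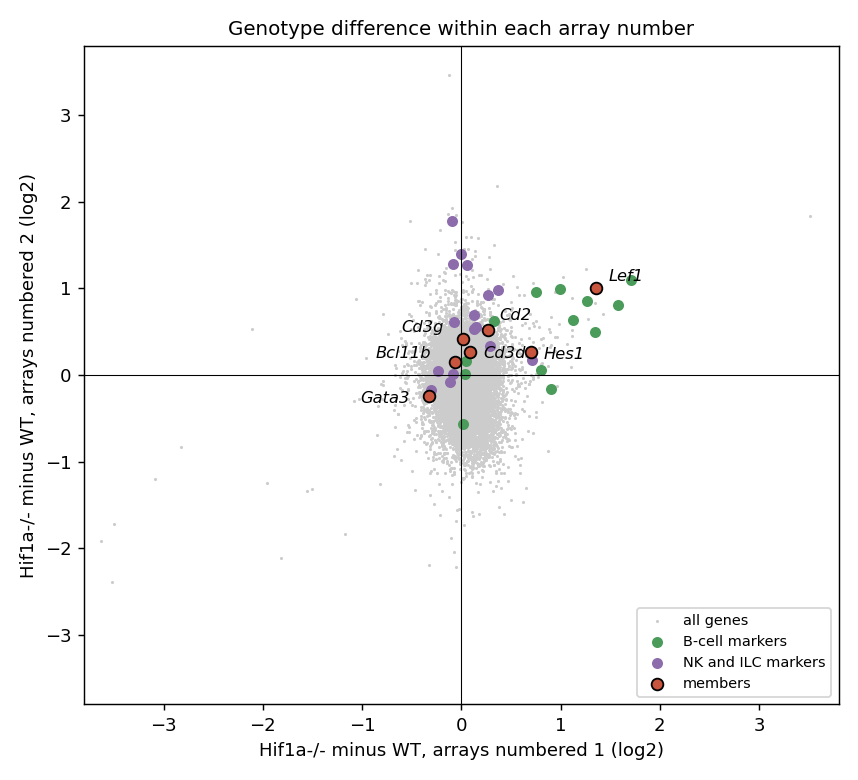
Hif1a-/- minus WT (log2) for the arrays numbered 1 (x axis) and numbered 2 (y axis), with all 19938 genes in grey, B-cell markers in green, NK and ILC markers in purple and the 7 measured members in red. Lef1 (1.35 and 1.01) lies among the B-cell markers, whereas Cd3g (0.02 and 0.41) lies toward number 2, where most NK and ILC markers are.

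The wider Wnt pathway gave no call and was divided by role. Of 91 listed genes 90 were measured. In limma 0 of the 89 other than Lef1 had an adjusted p under 0.05 in either direction. An unadjusted p under 0.05 was reached by 2 of the 89, against 0.727% of all genes. The whole list had 51 genes higher and 39 lower, 27 and 6 of them without overlap (30% and 6.67%, against 16.1% and 8.33% of all genes), and a median of 0.04 beside 0.0027 for all genes. Without Lef1, 26 and 6 of the 89 were without overlap (29.2% and 6.74%). The split of the whole list depended on the scaling, with 42 higher and 48 lower under quantile normalization and 33 higher and 57 lower under median centring, where all genes went from 10095 higher to 7185 and 5562.

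Ligands and inhibitors were mostly higher in the mean, and receptors and the cytoplasmic relay mostly lower. Among 23 ligands and R-spondins 18 were higher, led by Wnt4 at 0.33 (SE 0.15) and Wnt9b at 0.28 (SE 0.12), while Wnt6 differed by −0.05. Under median centring the ligands split into 12 higher and 11 lower, and under quantile normalization their median went from 0.09 to 0.0094. Among 13 inhibitors 10 were higher (7 under quantile normalization), with the Wnt-binding protein gene Wif1 at 0.23 (SE 0.11) and Sfrp1 at 0.18 (SE 0.13), and the co-receptor partner Kremen2 at −0.03. Sfrp1 was at 0.07 under quantile normalization. Many genes of both roles were dim, and among the dimmest 40% of all genes the median difference was 0.06. Without those dim genes 9 of 11 ligands and 3 of 5 inhibitors were higher. Of 18 receptors 13 were lower, but Lgr5, the R-spondin receptor known from intestinal stem cells, was 0.58 higher (SE 0.12) and Fzd10 0.17 higher. Lgr5 read 7.35 and 7.32 in WT against 7.83 and 8.00 in Hif1a-/-, with no overlap. It was among the dimmest 40% of genes, of which 27.9% were higher in Hif1a-/- without overlap. Of 13 relay genes 11 were lower (8 under quantile normalization and 7 under cyclic loess). All 13 were among the brightest 60% of genes, whose median difference was −0.05. The role as listed also takes in Wnt secretion with Wls, which carries Wnt proteins to the surface, at −0.52 (SE 0.28). The kinase gene Gsk3a, at −0.08, turned sign under cyclic loess.

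Direct targets of the pathway did not share the size of the Lef1 difference. Of 14 measured targets 11 were higher in the mean (8 under median centring), with a median of 0.11. Besides Lef1, itself a target, Lgr5 and Tnfrsf19 had an unadjusted p under 0.05 in limma, against 0.727% of all genes. Tnfrsf19, a receptor of the tumour necrosis factor family named after its value was seen, was 0.50 higher (SE 0.14). Axin2, the feedback target used most often as a readout of the pathway and likewise named afterwards, read 8.07 and 8.31 in WT against 8.18 and 8.28 in Hif1a-/-. Its difference of 0.04 (SE 0.14) was under the spread between the WT arrays and turned sign under 3 scalings. Among the 11 nuclear partners, Pygo1 and Pygo2, which help beta-catenin to activate transcription, differed by 0.05 and −0.15, and the sign of Pygo1 turned under 3 scalings.

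Hes1 was higher in both arrays labelled Hif1a-/-, unevenly. Its log2 signal was 8.17 and 8.37 in WT (numbers 1 and 2) against 8.87 and 8.64 in Hif1a-/-. The genotypes did not overlap, but the closest values, those of the arrays numbered 2, were 0.27 apart, against 0.70 for number 1. The means were 8.27 ± 0.14 (SD, n = 2) and 8.75 ± 0.17 (SD, n = 2), a difference of 0.49 (SE 0.15) or 1.40-fold. It lay at rank 151 from the highest of 19938 differences.

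The other genes of the Hes and Hey family, which share the basic helix-loop-helix fold of HES1, were close to level. Hey1 read 7.92 and 7.92 in WT against 8.13 and 8.11 in Hif1a-/-, a difference of 0.20 (SE 0.11), and Heyl differed by 0.24 (SE 0.16), both without overlap. Hes7, Hes2, Hes3 and Hey2 differed by 0.12, 0.07, 0.03 and 0.09, of which the last 3 turned sign under at least 1 scaling. Hes6, an antagonist of HES1, differed by −0.16 (SE 0.16), and Hes5, another textbook Notch target, by −0.02, with its sign turned under quantile normalization and cyclic loess. With Hes1 counted, 7 of the 9 in the family were higher in the mean (5 under median centring). Those without overlap were 4 (44.4%, against 16.1% of all genes), namely Hes1, Hes2, Hey1 and Heyl. This share counts Hes1, which was chosen with its difference known. Hey1 was among the dimmest 40% of genes, of which 27.9% were higher in Hif1a-/- without overlap, and was at 0.10 under quantile normalization.

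The Notch pathway as a list was level. Of 50 listed genes 47 were measured, and 0 of the 45 other than members had an adjusted p under 0.05 in limma, nor did any of them pass without adjustment (0 in the same fit). The 47 split into 22 higher and 25 lower, with a median of −0.01. Those without overlap were 6 and 3 (12.8% and 6.38%, against 16.1% and 8.33% of all genes), and among the 45 other than members 5 and 2 (11.1% and 4.44%). Under median centring the 47 split into 13 and 34 (27.7% higher, against 27.9% of all genes). All 5 ligands were higher in the mean by up to 0.21 (Dll1), yet 2 of 5 under quantile normalization. The 4 receptors lay between −0.01 (Notch1, SE 0.67, whose sign turned under quantile normalization and cyclic loess) and 0.16, and Notch3, at 0.04, was the only one without overlap and turned sign under quantile normalization and median centring. Of 18 genes listed under processing 14 were lower (12 under quantile normalization and under cyclic loess), among them the convertase Furin at −0.22 (SE 0.11). The role as listed is wider than receptor cleavage and takes in Mib1, Mib2, Numb, Numbl and Itch. All 18 were among the brightest 60% of genes, whose median difference was −0.05. Among 8 nuclear partners Snw1 differed by −0.21 (SE 0.12). Of 13 targets 8 were higher, with a median of 0.09, and Hes1 had the highest difference. Nrarp, a feedback target named after its value was seen, read 8.10 and 8.11 in WT against 8.24 and 7.91 in Hif1a-/-.

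**Figure D3:**
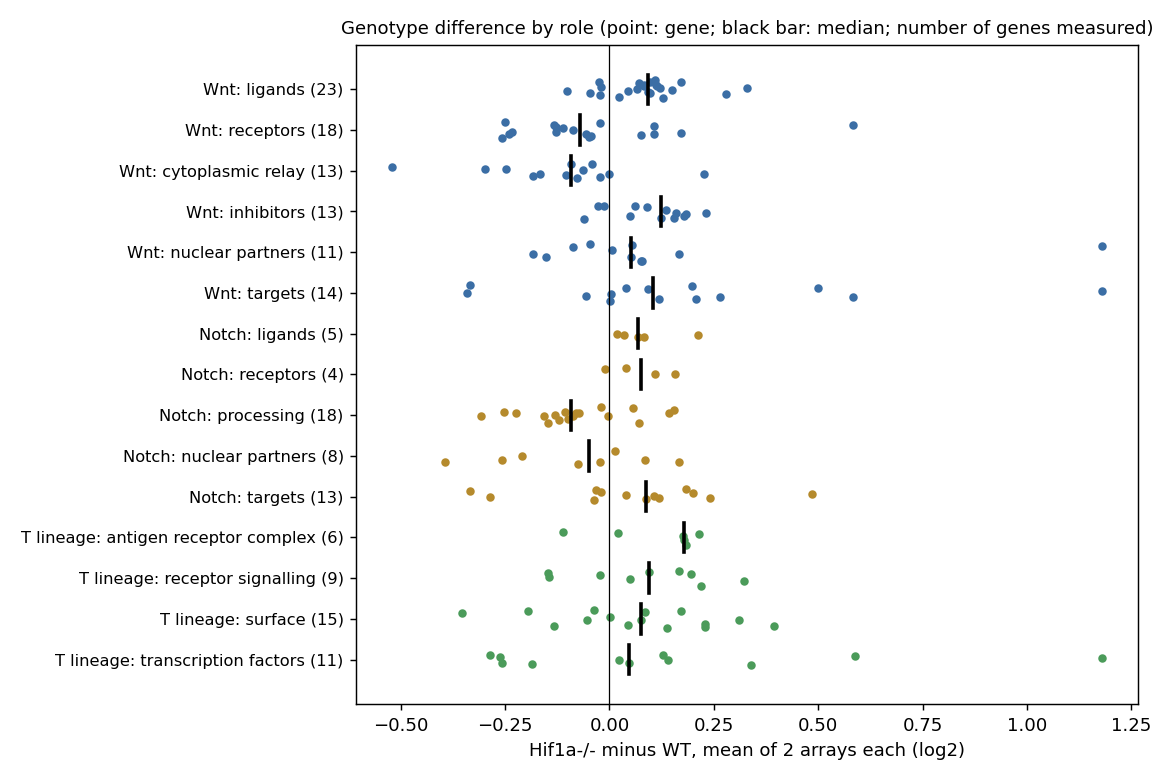
Hif1a-/- minus WT (log2, means of 2 arrays) for each measured gene of the Wnt, Notch and T-lineage lists, in rows by role, with the median of each row as a black bar. Apart from Lef1 at 1.18, which stands in 3 rows, every gene lies between −0.52 and 0.59, and the medians lie between −0.09 and 0.18.

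The profiles most like that of Hes1 were those of Stambpl1, Olfr361 and Rras2, at root mean square differences of 0.01, 0.03 and 0.04. Stambpl1, a deubiquitinase gene, read 9.56 and 9.77 in WT against 10.30 and 10.04 in Hif1a-/-. Olfr361, an olfactory receptor gene, read 5.89 and 6.06 against 6.51 and 6.33, and Rras2, a small GTPase gene, 9.38 and 9.63 against 10.16 and 9.95. In all 3, as in Hes1, array 1 labelled Hif1a-/- was the highest and WT array 1 the lowest. The 3 were picked from all genes for their likeness to Hes1 over these same arrays. Their shared order therefore comes with the choice and describes these arrays only. Olfr361 was among the dimmest 40% of genes.

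Gata3, the zinc-finger factor of T-lineage commitment that is also active in stem cells, was the member that was lower. It read 9.20 and 9.27 in WT against 8.87 and 9.03 in Hif1a-/-, with no overlap. The means were 9.24 ± 0.05 and 8.95 ± 0.11 (SD, n = 2 each), a difference of −0.29 (SE 0.12) or 1.22-fold lower. The direction held within number 1 (−0.33) and number 2 (−0.24). Gata1 and Gata2, its relatives of the erythroid and stem cell programmes, differed by −0.37 (SE 0.26) and −0.21 (SE 0.24), each with overlap of the genotypes. Gata4, Gata5 and Gata6 of non-blood tissues differed by −0.04, 0.04 and 0.15, and Gata5 turned sign under 3 scalings. Beside Gata3, all 13 measured LSK markers, Gata2 among them, had a lower mean in Hif1a-/-, 0 of them without overlap (against 8.33% of all genes). The median of these markers was −0.24 (−0.17 in number 1 and −0.32 in number 2). Their part in the Gata3 difference was not tested.

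Bcl11b, whose product seals commitment to the T lineage, was nearly level. Its values were 8.64 and 8.44 in WT against 8.58 and 8.59 in Hif1a-/-, so that both Hif1a-/- values lay between the WT values. The difference of 0.05 (SE 0.13) was −0.06 in number 1 and 0.16 in number 2, and it turned sign under quantile normalization and median centring. Its relative Bcl11a, a factor of B-cell and stem cell programmes, differed by 0.02 (SE 0.45), turned sign under median centring, and was lower in number 2 by 0.75 in WT and by 0.97 in Hif1a-/-.

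Cd2, an adhesion receptor of T and NK cells, read 7.17 and 7.38 in WT against 7.44 and 7.90 in Hif1a-/-. The genotypes did not overlap, although WT array 2 and array 1 labelled Hif1a-/- were only 0.06 apart. The means were 7.28 ± 0.15 and 7.67 ± 0.32 (SD, n = 2 each), a difference of 0.39 (SE 0.21), which was 0.17 without array 2 labelled Hif1a-/-. Cd48, which encodes the ligand of CD2 in mice, differed by −0.14 (SE 0.20).

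Cd3d and Cd3g encode chains that pair with CD3 epsilon in the T-cell receptor complex. Cd3d read 6.77 and 6.79 in WT against 6.86 and 7.06 in Hif1a-/-, a difference of 0.18 (SE 0.13) without overlap. Quantile normalization gave 0.06, and leaving out array 2 labelled Hif1a-/- gave 0.08. Cd3g read 6.56 and 6.96 in WT against 6.58 and 7.37 in Hif1a-/-. Its order followed the array number, since both arrays numbered 2 lay above both numbered 1, and the genotypes overlapped. The Cd3g difference of 0.21 (SE 0.33) was 0.02 in number 1 and 0.41 in number 2, and without array 2 labelled Hif1a-/- it was −0.18. Cd3e, the epsilon chain, read 8.42 and 8.65 in WT against 8.55 and 8.88 in Hif1a-/-, again higher in number 2 in both genotypes. Cd247, the zeta chain, read 8.50 and 8.20 against 8.39 and 8.09 and ran the other way.

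Cd3d and Cd3g lie next to each other and are read in opposite directions, with their starts 1355 bases apart (GRCm38.p6). Their upstream windows are shown because the genes are neighbours. Both were higher in Hif1a-/- within each number and higher in number 2 within each genotype, but only Cd3d was without overlap of the genotypes. Capitals mark the same 4 cores as for Lef1.
Cd3d, chr9:44981536-44981785, plus strand: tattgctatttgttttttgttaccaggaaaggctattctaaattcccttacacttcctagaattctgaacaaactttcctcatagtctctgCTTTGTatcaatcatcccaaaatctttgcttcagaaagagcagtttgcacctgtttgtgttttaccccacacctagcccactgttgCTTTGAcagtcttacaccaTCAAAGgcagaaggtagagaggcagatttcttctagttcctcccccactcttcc
Cd3g, chr9:44980432-44980681, minus strand: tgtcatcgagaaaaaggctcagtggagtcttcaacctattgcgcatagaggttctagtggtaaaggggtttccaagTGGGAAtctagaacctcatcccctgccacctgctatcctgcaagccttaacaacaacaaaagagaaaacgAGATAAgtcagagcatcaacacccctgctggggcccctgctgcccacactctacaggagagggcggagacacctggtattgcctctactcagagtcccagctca
The Cd3d window held 3 LEF/TCF core matches, which begin 159, 73 and 54 bases before the start, and none of the other 3 cores. In the Cd3g window an RBPJ core begins 174 bases and a GATA core 104 bases before the start, and it held 0 LEF/TCF cores. The Gata3 window held 0 of the 4 cores, and that of Bcl11b held 1 LEF/TCF core. Windows for 6 of the 8 genes were found.

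Low signal, and markers of other lymphoid cells, stood beside the 3 surface chains. Cd2, Cd3d and Cd3g were among the dimmest 40% of genes (7975), of which 27.9% were higher in Hif1a-/- without overlap, against 8.25% of the brighter genes. The median difference of those dim genes was 0.06, and that of the brighter ones was −0.05. The 16 measured NK and ILC markers had mean log2 signals of 8.08 and 8.98 in WT (numbers 1 and 2) against 8.15 and 9.63 in Hif1a-/-. Of these 12 were higher in Hif1a-/- in the mean, 0 of them without overlap (against 16.1% of all genes). The list's median difference was 0.03 in number 1 and 0.58 in number 2. Summed on the linear scale the NK and ILC list gave 10653 to 19863 in WT against 10546 to 24214 in Hif1a-/-. The part of such cells and of low signal in the small differences of the surface chains was not tested.

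Over the whole T-lineage list, differences were small and no call was made. Of 45 listed genes 41 were measured, and in limma 0 of the 35 other than members had an adjusted p under 0.05 in either direction. In the same fit 1 of the 35, Ets1, had an unadjusted p under 0.05, against 0.727% of all genes. The list, which includes 6 members, had 28 genes higher and 13 lower, with 10 and 1 without overlap (24.4% and 2.44%, against 16.1% and 8.33% of all genes) and a median of 0.08. Since the members were chosen with their differences known, the 35 others are the fairer set. Of these 23 were higher and 12 lower, with 7 and 0 without overlap (20% and 0%). Of the 41, 68.3% were higher, against 50.6% of all genes. Under quantile normalization 23 were higher and 18 lower (56.1% higher, against 36% of all genes). Under median centring the split was 20 and 21 (48.8% higher, against 27.9% of all genes).

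Transcription factors of the T lineage ranged widest. Ets1, a factor shared by T, B and NK cells, read 9.59 and 9.47 in WT against 9.96 and 10.28 in Hif1a-/-. Its difference of 0.59 (SE 0.16) came after that of Lef1 and was larger in number 2 (0.80) than in number 1 (0.37). In the receptor complex, Ptcra, the surrogate alpha chain of immature T cells, was 0.18 higher (SE 0.11), as was Cd3e. Among signalling genes Themis, of thymocyte selection, was 0.22 higher (SE 0.13) and the kinase gene Fyn 0.10 higher, both without overlap. Under quantile normalization Ptcra was at 0.09 and Themis at 0.10, and under median centring Fyn was at 0.0083. Cd8b1, a co-receptor chain, was 0.08 higher and turned sign under 3 scalings. Lower means were found for 1 of 6 receptor complex genes, 3 of 9 signalling genes, 5 of 15 surface genes and 4 of 11 transcription factors. Of these only Gata3 was without overlap, and Cd27, at −0.35, was the lowest. Themis was among the dimmest 40% of genes, and without those 3 of 4 signalling genes were lower.

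The members also varied by array number. From number 1 to number 2, Cd3g differed by 0.40 in WT against 0.79 in Hif1a-/-, Cd2 by 0.21 and 0.45, Cd3d by 0.02 and 0.20, and Gata3 by 0.07 and 0.16. Lef1 differed by 0.28 in WT and −0.07 in Hif1a-/-, Hes1 by 0.20 and −0.24, and Bcl11b by −0.20 and 0.01. Cd3g alone among the 7 had both arrays of a number beyond both of the other. Over all genes both arrays numbered 2 lay above both numbered 1 for 20.4% and below for 27.2%, so such separation was common. In the T-lineage list, and named after their values were seen, the co-stimulatory receptor Cd27 differed by −2.32 and −2.61 and the cytokine receptor chain Il2ra by 2.35 and 2.02. Neutrophil markers differed by a median of 1.34 in WT against 2.56 in Hif1a-/-, and LSK markers by −0.96 and −0.83. With 1 array for each genotype and number, whether a genotype difference itself differs between the numbers could not be tested.

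**Figure D4:**
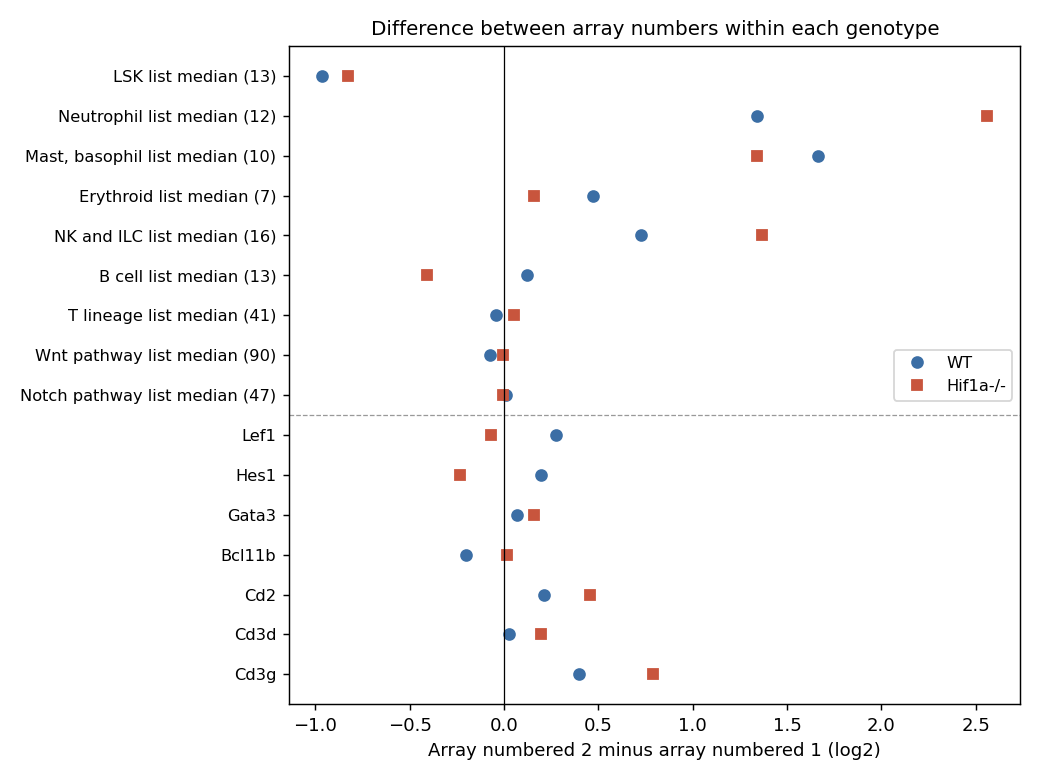
Array numbered 2 minus array numbered 1 (log2) within WT (circles) and within Hif1a-/- (squares), as medians of cell type and pathway lists with the number of measured genes (above the dashed line) and for each measured member (below it). Neutrophil, mast cell, and NK and ILC lists lie to the right and the LSK list to the left, while the members lie between −0.24 and 0.79.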

How the data were processed

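RNA from 4 sorted LSK samples was measured on Affymetrix whole-transcript arrays. Per the submitters' processing notes, the authors ran RMA in Expression Console 1.1, and the deposited values are taken as log2 signals from their range (3.08 to 14.88). RMA normalizes probe signals between arrays, but the deposited medians still ran from 8.19 to 8.35 and the interquartile ranges from 2.49 to 2.78, so further scalings were tried. Of 35556 probe sets 21789 carried 1 symbol by GEO's annotation of the platform, 1621 carried more and 12146 none. Symbols were checked by gene ID (21698 found, 0 updated). Where a gene had several probe sets (999 genes) the one with the highest mean was used.

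Genotypes were taken from the sample titles and compared in R 4.3.3 by limma 3.58.1 (lmFit, eBayes, two-sided, no covariates, Benjamini-Hochberg over all genes), tested on simulated data. No filter was applied. The number of arrays limits the precision, and the median SE of a difference was 0.15. Lists are described by counts and medians. Members, lists, the naming rule and alternatives were chosen with earlier results of these data known. Named are the members, their relatives, up to 2 genes per role and direction with the largest difference without overlap, and the 3 nearest profiles of Lef1 and Hes1. Sequences are from RefSeq. Alternatives tried were a block for the replicate number, omission of each array, 3 scalings, omission of the dimmest 40% of genes, a mean over probe sets, eBayes with trend and robust and, added after seeing the data, the arrays of 1 number alone.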

Additional observations from a re-analysis of the deposited data

Results flagged for a closer look

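For 3 members the difference between the array numbers ran in opposite directions in the genotypes. From number 1 to number 2, Lef1 differed by 0.28 in WT and by −0.07 in Hif1a-/-, Hes1 by 0.20 and −0.24, and Bcl11b by −0.20 and 0.01. The genotype difference of Bcl11b was likewise −0.06 in number 1 and 0.16 in number 2. Under cyclic loess the Lef1 value in Hif1a-/- was 0.0285, and under quantile normalization and median centring that of Bcl11b was −0.0107 and −0.0168, so there the signs were no longer opposite. None of these opposite signs was tested, since each rests on 1 array per genotype and number.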

How the results depend on the processing

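The count of genes called between the genotypes stayed at 0 with each array left out, under the 3 scalings, without the dimmest genes, with averaged probe sets, with the block and with trend and robust. It was not computed for the arrays of 1 number alone. The 145 genes at an unadjusted p under 0.05 became 39 without the dimmest 40% of genes (fewer tested), 339 with trend and robust, and 57 to 622 with an array left out. The labels do not say that the numbers mark a shared batch. Deviations from the group mean correlated at 0.669 between arrays of the same number, and with the replicate number as a block the 145 became 478, with 0 called. Leaving out an array gave 1.04 to 1.32 for Lef1, 0.37 to 0.60 for Hes1, −0.36 to −0.21 for Gata3, 0.17 to 0.62 for Cd2, 0.08 to 0.27 for Cd3d, −0.18 to 0.61 for Cd3g and −0.0548 to 0.15 for Bcl11b. List medians ranged over 0.049 to 0.17 (T lineage), 0.0022 to 0.0662 (Wnt) and −0.0087 to 0.0454 (Notch). With the arrays numbered 1 alone, Lef1 gave 1.35, Hes1 0.70 and Bcl11b −0.0622, and the T-lineage, Wnt and Notch medians were 0.0302, 0.0111 and −0.0603. Those numbered 2 gave 1.01, 0.27, 0.16, 0.1446, 0.0729 and 0.0547. Median centring moved Gata3 to −0.37, Bcl11b to −0.0405, the 3 medians to −0.0028, −0.045 and −0.10, and the Wnt and Notch genes higher to 33 and 13. Quantile normalization moved Cd3d to 0.061, Bcl11b to −0.0189, and the T-lineage and Wnt medians to 0.031 and −0.0123. The median over all genes was −0.0843 under median centring and −0.0452 under quantile normalization. Under cyclic loess the Wnt and Notch medians were 0.0109 and 0.0014. Without the dimmest genes the T-lineage median was 0.0125 with 15 of 28 higher, and the Wnt median −0.0201 with 29 of 59 higher. Of the number differences in Hif1a-/-, that of Lef1 became 0.0285 under cyclic loess, and that of Bcl11b −0.0107 under quantile normalization and −0.0168 under median centring. The cause of these moves was not tested. Signal over background was not given.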
